A study of Mus musculus with 13 samples.

Results

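The subject here is the desmosome of simple epithelium, read as the transcripts of 8 genes: the cadherins Dsg2 and Dsc2, the plakin Dsp, and the armadillo proteins Jup, Pkp1, Pkp2, Pkp3 and Pkp4. A transcript cluster (the set of probes that the array reports as 1 value) was used when its annotation named 1 gene only, and the cluster with the highest mean over all arrays stood for the gene. All 8 listed genes were found, among 19938 genes measured, and each had 1 such cluster. Whole-transcript expression arrays were hybridised with RNA of mouse rectum in 3 groups. Adenocarcinoma (5 arrays, mice aged 53 to 80 weeks) and adjacent inflamed mucosa (4 arrays, 53 to 64 weeks) were dissected from thick cryosections of rectal prolapses that had formed in α6fl/fl Villin-Cre mice. In these mice a Cre recombinase under the Villin promoter, which is active in intestinal epithelium, deletes the floxed gene of the α6 integrin, and the stroma keeps it. Normal mucosa (4 arrays, 53 to 70 weeks) was scraped from the rectum of matched control mice, a different way of taking tissue. The labels give all 13 samples the genotype α6fl/fl Villin-Cre in 1 field and call the normal samples control in another, so the controls' own alleles are not settled here. Females and males were present in each group. The labels do not say outright that each array is a separate mouse, so p-values measure the spread between these samples.

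Desmosomes are spot-like junctions that tie the keratin filaments of neighbouring epithelial cells together. The desmogleins and desmocollins bridge the gap between cells, plakoglobin (Jup) and the plakophilins bind their tails inside the cell, and desmoplakin (Dsp) links that plaque to keratin. Simple epithelia such as the gut lining use Dsg2 and Dsc2, whereas Dsg1, Dsg3, Dsc1 and Dsc3 belong to stratified epithelia such as the skin and the anal canal.

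Promoter sequence was at hand for 3 of the 8 genes, Dsp, Jup and Pkp4, and is shown for these alone. Over the arrays r was 0.66 for Dsp with Jup, -0.21 for Dsp with Pkp4 and -0.50 for Jup with Pkp4. For the deviations from the group means it was 0.36, 0.07 and -0.14. A link between these sequences and the levels was not tested. Each line gives the 200 bases before the gene's start in RefSeq, build GRCm38.p6, 5′ to 3′ on the gene's strand. Capitals mark the GC box, searched as GGGCGG and, for the other strand, CCGCCC. The Dsp window is chr13:38151094-38151293 on the plus strand, the Jup window chr11:100397840-100398039 on the minus strand and the Pkp4 window chr2:59160650-59160849 on the plus strand.
Dsp: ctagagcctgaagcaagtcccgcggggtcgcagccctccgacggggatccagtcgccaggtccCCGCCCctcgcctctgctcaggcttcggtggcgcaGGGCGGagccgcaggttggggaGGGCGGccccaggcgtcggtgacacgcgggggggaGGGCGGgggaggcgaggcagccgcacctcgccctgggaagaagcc
Jup: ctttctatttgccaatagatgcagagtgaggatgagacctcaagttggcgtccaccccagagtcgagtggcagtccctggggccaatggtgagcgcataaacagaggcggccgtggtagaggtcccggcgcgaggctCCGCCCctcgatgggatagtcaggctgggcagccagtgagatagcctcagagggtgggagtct
Pkp4: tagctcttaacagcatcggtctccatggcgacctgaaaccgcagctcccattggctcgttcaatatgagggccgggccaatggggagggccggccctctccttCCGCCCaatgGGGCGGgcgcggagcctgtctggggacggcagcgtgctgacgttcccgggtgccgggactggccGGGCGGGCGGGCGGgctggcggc
The Dsp window held 4 GC boxes, the Jup window 1 and the Pkp4 window 5, of which the last 3 overlap one another. At least 1 GC box was present in 31.0% of 32851 promoter windows of the same length, so having 1 is common. How many windows hold 4 or 5 was not counted. The E-box CACCTG (13.9% of all windows, either strand), the AP-1 motif TGACTCA or TGAGTCA (3.7%), the TEAD motif GGAATG (10.1%, either strand) and the grainyhead motif AACCGG (4.6%, either strand) did not occur in the 3 windows. The share of G and C was 75.5% for Dsp, 60.5% for Jup and 70.5% for Pkp4, beside a median of 53.0% over all windows.

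The median log2 value of an array was 6.41 to 6.59, and pairs of arrays correlated at 0.943 to 0.990 over all genes. Transcripts that should be absent (Xist in males and Y-linked genes in females) read up to 5.57, which gives a scale for low values. The targeted gene, Itga6, read 11.44 to 11.62 in adenocarcinomas, 10.90 to 11.20 in inflamed mucosa and 10.75 to 11.16 in normal mucosa, and was higher in adenocarcinoma than in normal mucosa by 0.63 ± 0.10 (SE; limma adjusted p = 0.000272). The labels do not give the deleted part of Itga6 or its place relative to the probes, so this value does not check the genotype. Markers of intestinal epithelium were high in all groups: Epcam read 11.54 to 11.88 in adenocarcinomas, 11.55 to 11.85 in inflamed mucosa and 11.86 to 12.00 in normal mucosa. The mean of 10 epithelial markers was 11.99 to 12.03 in adenocarcinomas, 11.76 to 11.92 in inflamed mucosa and 12.06 to 12.21 in normal mucosa. Stromal markers differed more. The mean of 8 smooth muscle markers was 8.61 to 8.87 in adenocarcinomas, 10.24 to 11.14 in inflamed mucosa and 6.63 to 8.11 in normal mucosa, and the endothelial mean was 8.26 to 8.60, 7.98 to 8.68 and 6.04 to 6.56 in the same order of groups. Of the measured markers, 8 of 8 endothelial, 6 of 6 fibroblast and 5 of 5 macrophage genes were higher than in normal mucosa in adenocarcinoma and likewise in inflamed mucosa, and smooth muscle genes were higher in 7 of 8 and in 8 of 8. In such bulk tissue, fewer epithelial cells and less RNA per epithelial cell cannot be told apart.

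Against normal mucosa, 5 of 8 desmosome genes were called in adenocarcinoma, 4 with more transcript (Dsc2, Pkp1, Pkp2 and Pkp4) and 1 with less (Dsg2), while Dsp, Jup and Pkp3 did not pass the test (limma, 1 fit of the 3 groups, Benjamini-Hochberg over all genes, adjusted p below 0.05). Over all genes 35.8% passed in this comparison, 3266 as higher and 3867 as lower. In inflamed mucosa against normal mucosa, 4 of 8 were called, 1 higher (Pkp4) and 3 lower (Dsg2, Jup and Pkp3), where 26.7% of all genes passed, 2730 as higher and 2592 as lower. Between adenocarcinoma and inflamed mucosa no desmosome gene passed in this fit, which does not use the pairing described below. Still, 7 of 8 had an unadjusted p below 0.05 and 7 of 8 differences were positive. In that comparison 7.12% of all genes passed the adjusted threshold, 581 as higher and 839 as lower. The share of all genes with an unadjusted p below 0.05 was not counted, so the 7 of 8 cannot be set against the 7.12%. The median difference of the 8 genes was 0.20 in adenocarcinoma against normal mucosa, -0.07 in inflamed against normal mucosa and 0.32 in adenocarcinoma against inflamed mucosa, beside -0.10, -0.09 and -0.01 over all genes. These comparisons share their arrays, so their values are set side by side and not counted as separate evidence.

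**Figure D1:**
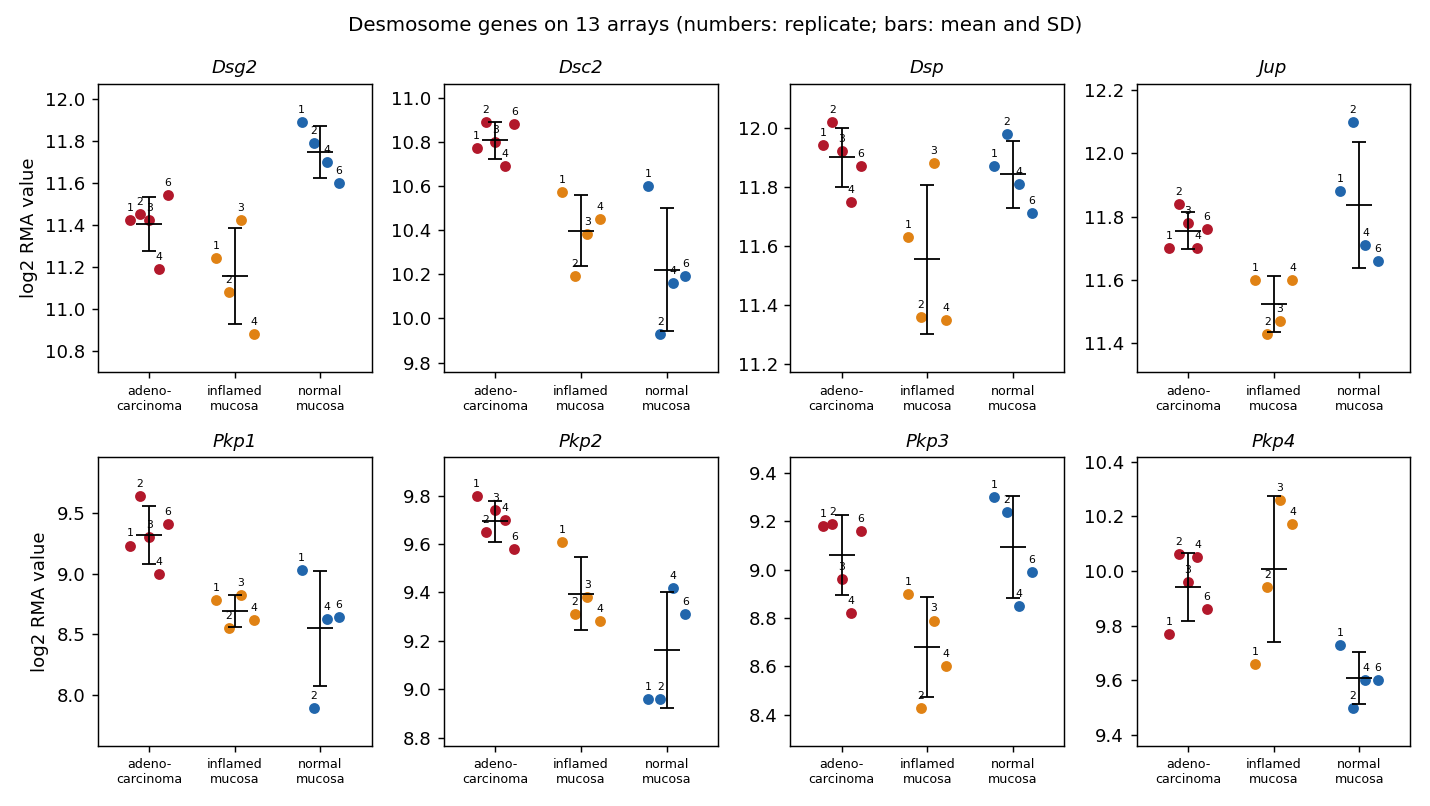
Log2 RMA value (vertical axis, own range per panel) of each of the 8 desmosome genes on the 13 arrays, with the replicate number beside each point and the mean and SD as bars. Dsg2 sat lower on all adenocarcinoma and inflamed arrays than on all normal arrays, and Dsc2 and Pkp2 sat higher on all adenocarcinoma arrays than on all normal arrays.

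The desmosomal cadherins went in opposite directions in the tumours. In what follows, values are log2 RMA levels in the order adenocarcinoma 1, 2, 3, 4 and 6, inflamed mucosa 1 to 4, and normal mucosa 1, 2, 4 and 6. Dsg2, the desmoglein of simple epithelia, read 11.42, 11.45, 11.42, 11.19 and 11.54 in adenocarcinomas and 11.24, 11.08, 11.42 and 10.88 in inflamed mucosa, against 11.89, 11.79, 11.70 and 11.60 in normal mucosa. All adenocarcinoma and all inflamed arrays lay below the lowest normal array. The difference was -0.34 ± 0.11 (SE; limma adjusted p = 0.0301), or 1.26-fold lower, in adenocarcinoma, and -0.59 ± 0.12 (adjusted p = 0.00267), or 1.50-fold lower, in inflamed mucosa. The adenocarcinoma call was lost without adenocarcinoma 4 (adjusted p = 0.0740), without normal mucosa 1 (0.0804) and without normal mucosa 2 (0.0717), whereas the inflamed call was kept whichever array was left out.

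Dsc2, the desmocollin that pairs with Dsg2 in simple epithelia, read 10.77, 10.89, 10.80, 10.69 and 10.88 in adenocarcinomas and 10.57, 10.19, 10.38 and 10.45 in inflamed mucosa, against 10.60, 9.93, 10.16 and 10.19 in normal mucosa. The adenocarcinoma arrays were tightly grouped (SD 0.08, n = 5) and all above both other groups, while the inflamed and normal arrays overlapped. Dsc2 was higher in adenocarcinoma than in normal mucosa by 0.59 ± 0.12 (limma adjusted p = 0.00200), or 1.50-fold, and this call was kept in every fit that left out 1 array, with differences of 0.49 to 0.71. In inflamed mucosa the difference from normal mucosa was 0.18 ± 0.13 (adjusted p = 0.289, 95% interval -0.09 to 0.45).

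Dsc2 and Dsg2 act together at the same junction, so their difference on each array was also taken. It shows how the balance shifted between groups, not which transcript was more abundant, since probes of different genes bind differently. Dsc2 minus Dsg2 was -0.65, -0.56, -0.63, -0.50 and -0.66 in adenocarcinomas and -0.67, -0.89, -1.05 and -0.43 in inflamed mucosa, against -1.29, -1.86, -1.54 and -1.41 in normal mucosa. Every prolapse array lay above every normal array, with means of -0.60 ± 0.07 in adenocarcinoma (SD, n = 5), -0.76 ± 0.27 in inflamed mucosa and -1.53 ± 0.25 in normal mucosa (n = 4 each). The adenocarcinoma and inflamed arrays overlapped. These differences are a description and were not tested, since both genes had been compared one by one.

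**Figure D2:**
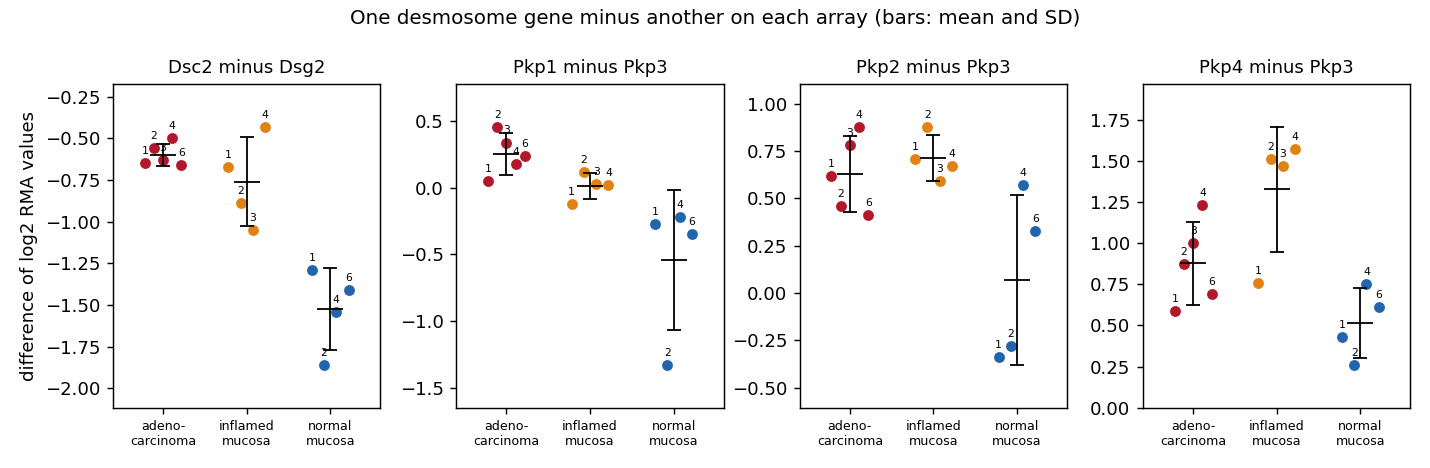
Difference of log2 RMA values between 2 desmosome genes on each array (vertical axis, own range per panel), with replicate numbers and bars for mean and SD. Dsc2 minus Dsg2 separated all adenocarcinoma and inflamed arrays from all normal arrays, and the plakophilin differences had their widest spread or their lowest arrays in normal mucosa.

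Dsp, which anchors the plaque to keratin filaments, differed little between tumour and normal mucosa. It read 11.94, 12.02, 11.92, 11.75 and 11.87 in adenocarcinomas and 11.63, 11.36, 11.88 and 11.35 in inflamed mucosa, against 11.87, 11.98, 11.81 and 11.71 in normal mucosa. Adenocarcinoma and normal arrays overlapped throughout, with a difference of 0.06 ± 0.11 (limma adjusted p = 0.686, 95% interval -0.18 to 0.30). Of the inflamed arrays, 3 lay below every other array and inflamed mucosa 3 lay among the rest. The inflamed difference from normal mucosa was -0.29 ± 0.12 (adjusted p = 0.0791) and became -0.40 (adjusted p = 0.0148) without inflamed mucosa 3.

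Jup, the plakoglobin of the inner plaque that adherens junctions also use, read 11.70, 11.84, 11.78, 11.70 and 11.76 in adenocarcinomas and 11.60, 11.43, 11.47 and 11.60 in inflamed mucosa, against 11.88, 12.10, 11.71 and 11.66 in normal mucosa. The inflamed arrays were below all others, and the adenocarcinoma and normal arrays overlapped. Jup was lower in inflamed than in normal mucosa by 1.24-fold, a difference of -0.31 ± 0.10 (limma adjusted p = 0.0319). That call was lost without inflamed mucosa 2 (adjusted p = 0.0921) or 3 (0.0655) and without normal mucosa 1 (0.0664) or 2 (0.0843). The adenocarcinoma difference from normal mucosa was -0.08 ± 0.09 (adjusted p = 0.490, 95% interval -0.28 to 0.12).

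The plakophilins, which gather desmoplakin and the cadherin tails at the membrane, did not move as a group. Pkp1, best known from stratified epithelium, where its loss in humans weakens the skin, read 9.23, 9.64, 9.30, 9.00 and 9.41 in adenocarcinomas and 8.78, 8.55, 8.82 and 8.62 in inflamed mucosa, against 9.03, 7.90, 8.63 and 8.64 in normal mucosa. Normal mucosa 2 was the lowest of all arrays and normal mucosa 1 reached into the tumour range. Pkp1 was 1.70-fold higher in adenocarcinoma than in normal mucosa, a difference of 0.77 ± 0.18 (limma adjusted p = 0.00586) that ranged over 0.55 to 0.93 when 1 array was left out and stayed called each time. Pkp2, the widely expressed plakophilin of heart and simple epithelia, read 9.80, 9.65, 9.74, 9.70 and 9.58 in adenocarcinomas and 9.61, 9.31, 9.38 and 9.28 in inflamed mucosa, against 8.96, 8.96, 9.42 and 9.31 in normal mucosa. Every tumour exceeded every normal array, and the difference was 0.53 ± 0.11 (adjusted p = 0.00233), or 1.44-fold, called in each fit that left out 1 array. In inflamed against normal mucosa neither passed: Pkp1 differed by 0.14 ± 0.19 (adjusted p = 0.586) and Pkp2 by 0.23 ± 0.12 (adjusted p = 0.147).

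Pkp3, a plakophilin of most simple and stratified epithelia, went with the desmosome genes that were low in inflamed mucosa. It read 9.18, 9.19, 8.96, 8.82 and 9.16 in adenocarcinomas and 8.90, 8.43, 8.79 and 8.60 in inflamed mucosa, against 9.30, 9.24, 8.85 and 8.99 in normal mucosa. Tumour and normal arrays covered nearly the same range, with a difference of -0.03 ± 0.12 (limma adjusted p = 0.855, 95% interval -0.30 to 0.24). In inflamed mucosa Pkp3 was 1.33-fold lower than in normal mucosa, by -0.41 ± 0.13 (adjusted p = 0.0339), although inflamed mucosa 1 overlapped the normal arrays. The call was lost without inflamed mucosa 2 (adjusted p = 0.108) or 4 (0.0803) and without normal mucosa 1 (0.0876) or 2 (0.0937).

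Pkp4, also called p0071, sits at both desmosomes and adherens junctions and was the only desmosome gene called higher in both prolapse tissues. It read 9.77, 10.06, 9.96, 10.05 and 9.86 in adenocarcinomas and 9.66, 9.94, 10.26 and 10.17 in inflamed mucosa, against 9.73, 9.50, 9.60 and 9.60 in normal mucosa. All tumours exceeded all normal arrays, narrowly for adenocarcinoma 1, and inflamed mucosa 1 overlapped them. The differences from normal mucosa were 0.33 ± 0.12 (1.26-fold, limma adjusted p = 0.0381) in adenocarcinoma and 0.40 ± 0.12 (1.32-fold, adjusted p = 0.0269) in inflamed mucosa. The adenocarcinoma call was lost without adenocarcinoma 2 (adjusted p = 0.0852), 3 (0.0666) or 4 (0.0823) and without normal mucosa 2 (0.102), 4 (0.0651) or 6 (0.0622). It also missed the threshold with age as a covariate (0.0502), with the replicate block (0.0758), with cyclic loess (0.0858) and with all transcript clusters tested (0.0567). The inflamed call was lost without inflamed mucosa 3 (0.0713) or 4 (0.0782) and without normal mucosa 2 (0.0734).

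Against Pkp3 on the same array, the other plakophilins had higher means in the prolapse, given here as a description with no test. Pkp1 minus Pkp3 averaged 0.25 ± 0.16 in adenocarcinoma (SD, n = 5) and 0.01 ± 0.10 in inflamed mucosa, against -0.54 ± 0.53 in normal mucosa (n = 4 each). Pkp2 minus Pkp3 averaged 0.63 ± 0.20 in adenocarcinoma and 0.71 ± 0.12 in inflamed mucosa, against 0.07 ± 0.45 in normal mucosa. Pkp4 minus Pkp3 averaged 0.88 ± 0.25 in adenocarcinoma and 1.33 ± 0.38 in inflamed mucosa, against 0.51 ± 0.22 in normal mucosa. The normal arrays split for Pkp2 minus Pkp3, with arrays 1 and 2 at -0.34 and -0.28 and arrays 4 and 6 at 0.57 and 0.33, while the prolapse arrays ran from 0.41 to 0.88.

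Set by whether arrays of the groups overlapped at all, 4 of 8 desmosome genes separated adenocarcinoma from normal mucosa (Dsg2, Dsc2, Pkp2 and Pkp4), where 26.9% of all genes did so. Inflamed and normal mucosa were separated by 2 of 8 (Dsg2 and Jup), against 27.6% of all genes. Adenocarcinoma and inflamed mucosa were separated by 3 of 8 (Dsc2, Jup and Pkp1, all higher in the tumours), against 11.8% of all genes.

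**Figure D3:**
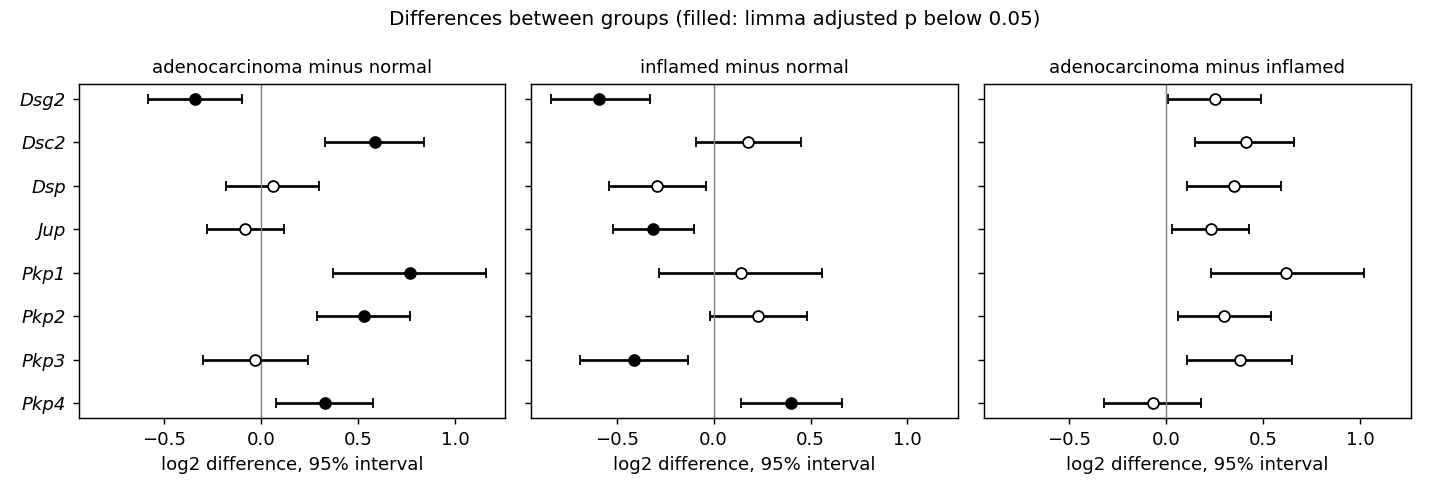
Difference in log2 RMA value (horizontal axis) with its 95% interval for each desmosome gene in the 3 comparisons, filled where the limma adjusted p was below 0.05. Between adenocarcinoma and inflamed mucosa the intervals of 7 genes lay above 0, yet none passed after adjustment, and Pkp4 was the exception with an interval of -0.32 to 0.18.

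The direct comparison of tumour with adjacent inflamed mucosa asked what distinguishes the carcinoma from the tissue beside it. Pkp1 had the widest difference, 0.62 ± 0.18 (limma adjusted p = 0.0585), followed by Dsc2 at 0.41 ± 0.12 (adjusted p = 0.0567), Pkp3 at 0.38 ± 0.12 (0.0876) and Dsp at 0.35 ± 0.11 (0.0788). Pkp2 differed by 0.30 ± 0.11 (0.137), Dsg2 by 0.25 ± 0.11 (0.236) and Jup by 0.23 ± 0.09 (0.179). Pkp4 alone had a negative value, -0.07 ± 0.12 (0.856). Tumour and inflamed arrays of the same number have the same sex and age in the labels, which normal mucosa 1, 2 and 4 also share. Tumour and inflamed arrays of the same number deviated together as well. A fit of these 9 arrays with the number as a block was therefore added after seeing the data (adenocarcinoma 6 has no partner). In it Pkp1 (0.60, adjusted p = 0.0289) and Pkp2 (0.33, adjusted p = 0.0449) passed and the other 6 did not. The block that also joined the normal arrays gave 0 calls. Other fits also moved values across the threshold. With array weights Dsc2, Dsp, Pkp1 and Pkp3 were called, and with the 9 arrays alone and no block Dsc2 (0.0190) and Pkp1 (0.0123). Without normal mucosa 1 or without normal mucosa 2, Dsc2 (adjusted p = 0.0164 and 0.0357) and Pkp1 (0.0290 and 0.0126) were called as higher in adenocarcinoma, at unchanged differences. Without inflamed mucosa 1 only Dsc2 was called (0.0485), without adenocarcinoma 4 only Pkp1 (0.0465), and without inflamed mucosa 3 only Dsp (0.46, adjusted p = 0.0182).

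Across the 13 arrays the 8 genes fell into sets that varied alike. Dsg2, Dsp, Jup and Pkp3 correlated with one another at Pearson r of 0.66 to 0.83, with Dsp and Pkp3 the closest at 0.83. Dsc2 and Pkp1 formed the tightest pair of all, at 0.94, and Pkp2 correlated with them at 0.70 and 0.68. Pkp4 ran against Dsg2 (-0.63), Jup (-0.50) and Pkp3 (-0.45). Dsg2 and Dsc2 themselves correlated at -0.17. These are descriptions over 13 arrays that share the normalisation and the group differences, so the deviations from the group means were correlated as well. There Dsc2 with Pkp1 kept 0.85, Dsg2 with Dsp 0.84 and Dsg2 with Pkp3 0.70, while Dsg2 with Jup gave 0.22, Dsp with Jup 0.36 and Dsc2 with Pkp2 -0.02. Pkp4 gave -0.07 with Dsg2, -0.14 with Jup, -0.23 with Pkp3 and 0.07 with Dsp.

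**Figure D4:**
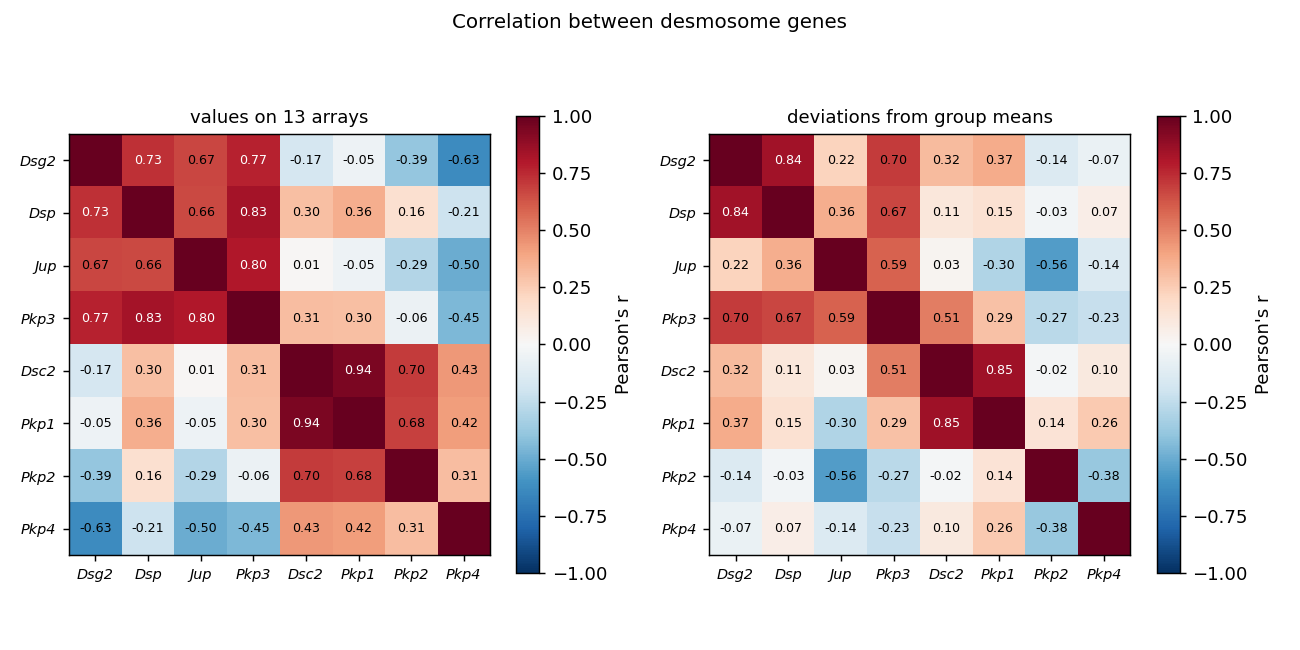
Pearson's r between the desmosome genes over the 13 arrays (left) and between their deviations from the group means (right), with colour running from -1 (blue) to 1 (red). Dsc2 and Pkp1 stood at 0.94 and 0.85, and Dsg2 and Dsp at 0.73 and 0.84.

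Of the other measured genes, the 3 whose levels were most like each desmosome gene over the 13 arrays were found by the highest r. Predicted genes named Gm followed by a number and genes named Rik were left out of this ranking. For Dsc2 they were Ripk3 (0.951), a kinase of necroptosis, Capg (0.942), an actin-capping protein, and Pkp1 itself (0.940). Pkp1 was most like Dsc2 (0.940), Sem1 (0.887) and Eif4g3 (0.886). For Dsg2 they were Pak4 (0.945), Cdc42bpg (0.941) and Src (0.937), which encode kinases. Dsp was most like Itpr3 (0.926), a calcium channel of the endoplasmic reticulum, Chmp6 (0.903) and Tjp3 (0.892), a tight junction protein. Jup was most like Krt42 (0.950), Ppp1r3e (0.933) and Hsf2bp (0.917), and Pkp3 like Chrna6 (0.937), Tssk6 (0.914) and Map2k3 (0.905). Chrna6 and Tssk6 averaged 4.75 and 5.63, near the level of absent transcripts. Pkp2 was most like Thyn1 (0.945), Tcaf2 (0.940) and Rcc1 (0.937), and Pkp4 like Msr1 (0.878), a macrophage scavenger receptor, Tead1 (0.875) and Vangl1 (0.869). Within groups, the r of deviations for these pairs ran from 0.668 for Pkp1 with Sem1 to 0.912 for Dsg2 with Cdc42bpg. The pairs were picked by their r over the same arrays, which favours high values here as well, so this is no separate check.

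Cell type markers moved with several desmosome genes over the same arrays. The r with marker means include the group differences, and deviations from the group means were not correlated here. The epithelial marker mean correlated with Jup at 0.87, with Dsg2 at 0.80, with Pkp3 at 0.75 and with Dsp at 0.60, and with Dsc2, Pkp1 and Pkp2 at -0.15, -0.14 and -0.31. The smooth muscle mean correlated with Dsg2 at -0.87, Jup at -0.77, Pkp3 at -0.72 and Dsp at -0.64. Pkp4 correlated with the macrophage mean at 0.82, the fibroblast mean at 0.76, the endothelial mean at 0.73 and the smooth muscle mean at 0.69. With the epithelial mean Pkp4 gave -0.70. Pkp2 correlated with the endothelial and the fibroblast mean at 0.70 each, Dsc2 at 0.59 and 0.62, and Pkp1 at 0.52 and 0.54. The squamous mean gave r from -0.21 for Pkp2 to 0.63 for Pkp3. With the epithelial mean as a covariate, Dsc2 alone stayed called between adenocarcinoma and normal mucosa (0.67, limma adjusted p = 0.0407). The differences there of the genes that lost their calls were 0.60 for Pkp1, 0.49 for Pkp2, 0.20 for Pkp4 and -0.29 for Dsg2. With the smooth muscle mean as a covariate 0 of 8 were called, with differences of 0.79 for Dsc2, 0.90 for Pkp1, 0.63 for Pkp2, 0.16 for Pkp4 and -0.05 for Dsg2. The Dsc2, Pkp1 and Pkp2 differences were thus larger than without that covariate, and the Dsg2 and Pkp4 differences smaller. Between inflamed and normal mucosa 0 of 8 were called with either covariate, and between adenocarcinoma and inflamed mucosa likewise 0 of 8. Because those means differ between the groups, tissue composition and group cannot be told apart in these fits.

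The desmosome genes of stratified epithelium set the contrast. Of 5 measured (Dsg1b, Dsg1c, Dsg3, Dsg4 and Dsc3), none passed against normal mucosa in adenocarcinoma or in inflamed mucosa, and only Dsg3 passed between adenocarcinoma and inflamed mucosa (limma, where at an unadjusted p below 0.05 there were 0, 1 and 1 of 5). Over all genes 35.8%, 26.7% and 7.12% passed in these comparisons. Dsg3, the desmoglein of basal squamous cells, read 7.27, 8.63, 7.91, 7.51 and 7.66 in adenocarcinomas and 5.29, 4.75, 4.80 and 4.78 in inflamed mucosa, against 10.03, 5.37, 5.06 and 5.29 in normal mucosa. All 5 tumours lay above all inflamed arrays and above normal mucosa 2, 4 and 6, while normal mucosa 1 was higher than every tumour. Every inflamed array was below 5.57, the highest level of absent transcripts, so the difference of tumours from inflamed mucosa, 2.89 ± 0.78 as measured (limma adjusted p = 0.0398), is given as at least 4.67-fold higher, taken against 5.57. That call was lost without adenocarcinoma 1 (adjusted p = 0.0600), 2 (0.0965), 3 (0.0646), 4 (0.0602) or 6 (0.0751) and without inflamed mucosa 1 (0.0574), 2 (0.104), 3 (0.0911) or 4 (0.0976). The SE of 0.78 rests on a spread shared by the 3 groups. For Dsg3 the SD was 2.40 in normal mucosa, against 0.52 in adenocarcinoma and 0.26 in inflamed mucosa. The call was kept with the 2 compared groups alone and without normal mucosa 1. Against normal mucosa the Dsg3 difference was 1.36 ± 0.78 (adjusted p = 0.181) with all arrays and 2.55 (adjusted p = 6.47e-06) without normal mucosa 1, where the other 3 normal arrays were also below 5.57 and the tumours were at least 4.67-fold higher.

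Dsc3, the desmocollin partner of Dsg3, did not follow it in every tumour. It read 4.68, 6.34, 6.25, 4.55 and 4.61 in adenocarcinomas and 4.64, 4.66, 4.44 and 4.60 in inflamed mucosa, against 8.30, 4.85, 4.73 and 4.69 in normal mucosa. Only adenocarcinomas 2 and 3 and normal mucosa 1 exceeded the level of absent transcripts. Krt5, a keratin of basal squamous cells, was likewise high in adenocarcinomas 2 and 3 (11.17 and 10.70) and in normal mucosa 1 (12.10), and read 5.98 to 7.38 in the other 3 tumours, 6.11 to 6.46 in inflamed mucosa and 6.07 to 6.52 in the other normal arrays. Krt14, its usual partner keratin, behaved like Dsg3, with 8.88, 10.63, 9.88, 8.47 and 8.59 in adenocarcinomas and 6.97, 6.42, 6.71 and 6.98 in inflamed mucosa, against 11.60, 7.34, 7.07 and 6.85 in normal mucosa. The mean of 12 squamous markers was 6.06 to 7.99 in adenocarcinomas and 5.64 to 5.91 in inflamed mucosa, against 9.46 in normal mucosa 1 and 5.85 to 6.12 in the other normal arrays. Of these 12 markers Lor, a protein of the cornified layer, passed between adenocarcinoma and inflamed mucosa (limma adjusted p = 0.0338, lost in 10 of 29 alternatives). Its inflamed arrays, at 5.02 to 5.55, were all below 5.57, so that it was at least 1.43-fold higher. Against normal mucosa 0 passed, where 1 in adenocarcinoma and 2 in inflamed mucosa had an unadjusted p below 0.05. These fits include normal mucosa 1, which widens the spread shared by the 3 groups. Without it, Krt14 and another squamous marker, Krt13, passed between adenocarcinoma and inflamed mucosa (2.53, limma adjusted p = 0.00117, and 1.81, 0.0188). Both then also passed between adenocarcinoma and normal mucosa (2.21, 0.00107, and 2.23, 0.00269), and Krt5 passed in neither.

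**Figure D5:**
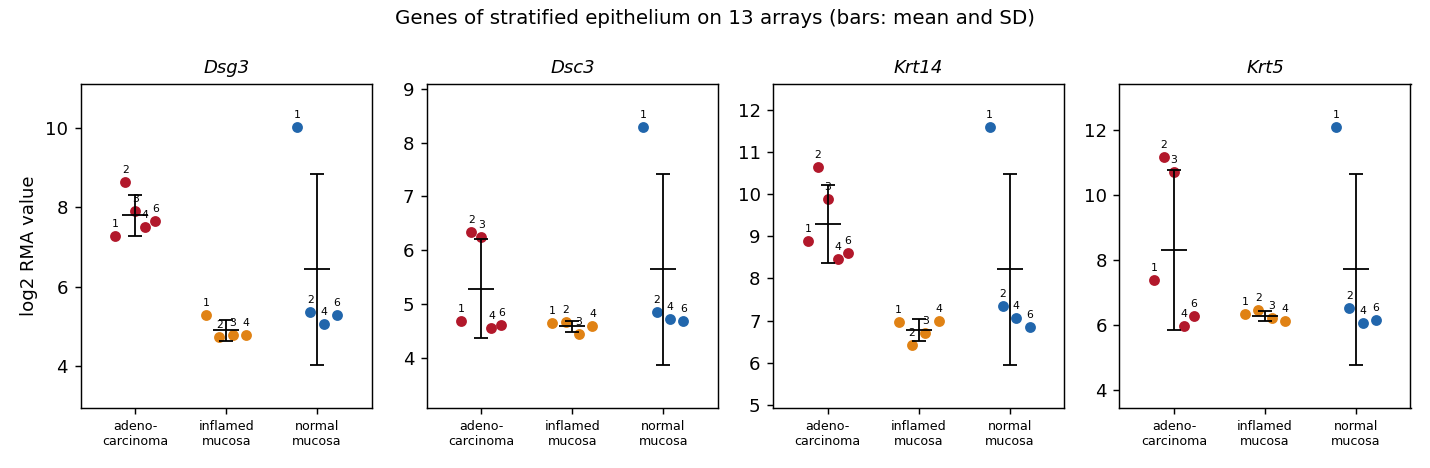
Log2 RMA value (vertical axis, own range per panel) of Dsg3, Dsc3, Krt14 and Krt5 on the 13 arrays, with replicate numbers and bars for mean and SD. Normal mucosa 1 was the highest array in each panel, all 5 adenocarcinomas exceeded the inflamed arrays for Dsg3 and Krt14, and adenocarcinomas 2 and 3 stood above the other tumours for Dsc3 and Krt5.

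Normal mucosa 1 also had the highest Dsg2, Dsc2, Pkp1, Pkp3 and Pkp4 levels of the 4 normal arrays. Without it, the adenocarcinoma difference from normal mucosa was 0.71 for Dsc2 (limma adjusted p = 0.000181), 0.93 for Pkp1 (0.00137), 0.46 for Pkp2 (0.00843), 0.37 for Pkp4 (0.0390) and -0.29 for Dsg2 (0.0804). Adenocarcinoma 2, the tumour with the highest squamous mean, had the highest Dsc2, Dsp, Jup, Pkp1, Pkp3 and Pkp4 of the tumours. Some of these leads were close to ties: Dsc2 at 10.89 (adenocarcinoma 6 at 10.88), Pkp3 at 9.19 (adenocarcinoma 1 at 9.18) and Pkp4 at 10.06 (adenocarcinoma 4 at 10.05). A link with the squamous mean was not tested. Without adenocarcinoma 2, the differences were 0.57 for Dsc2 (0.00631), 0.69 for Pkp1 (0.0168), 0.54 for Pkp2 (0.00538) and 0.30 for Pkp4 (0.0852).

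Genes that work beside the desmosome were counted in the same fit. Over all genes 35.8% passed in adenocarcinoma against normal mucosa and 26.7% in inflamed against normal mucosa. Between adenocarcinoma and inflamed mucosa 7.12% passed. The counts by list are to be read beside these shares and were not tested against them. Of 6 keratins of simple epithelium, whose filaments desmosomes anchor, 2 were higher and 1 lower in adenocarcinoma than in normal mucosa. Krt7 read 10.86 to 11.56 in adenocarcinomas and 10.31 to 10.57 in inflamed mucosa, against 9.81 to 9.96 in normal mucosa, with no overlap between any groups. Its difference was 1.32 between adenocarcinoma and normal mucosa (limma adjusted p = 2.52e-06), 0.53 between inflamed and normal mucosa (0.00741) and 0.79 between adenocarcinoma and inflamed mucosa (0.00145). Krt18 was higher in adenocarcinoma than in normal mucosa by 0.51 (0.000869) and than in inflamed mucosa by 0.37 (0.0281), and Krt20, a keratin of differentiated gut cells, was lower than in normal mucosa by 0.36, a value of -0.36 (0.0404). Krt23 was higher in adenocarcinoma than in inflamed mucosa by 0.96 (0.0478).

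Among 9 plakin and envelope partners, 3 were higher and 2 lower in adenocarcinoma than in normal mucosa, and 1 was higher and 3 lower in inflamed mucosa. Over all genes 35.8% and 26.7% passed in these comparisons. The spectraplakin Macf1, which links actin to microtubules, was higher by 0.69 in adenocarcinoma (limma adjusted p = 0.000634) and by 0.49 in inflamed mucosa (0.0124). Envoplakin, Evpl, a desmoplakin relative of the cornified envelope, was lower in both, by values of -0.58 (0.00224) and -0.84 (0.000335). Plec, which binds keratin at hemidesmosomes, was higher by 0.44 (0.0225) in adenocarcinoma and Pnn by 0.41 (0.0125). Kazn, a partner of periplakin at desmosomes, was lower in inflamed mucosa by a value of -0.71 (0.00299), and Perp, a membrane protein that desmosome adhesion needs in stratified epithelia of mice, by -0.31 (0.0241).

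Of 10 adherens junction genes, 1 was lower and 0 were higher in adenocarcinoma than in normal mucosa, and 3 were lower in inflamed mucosa. The shares over all genes were 35.8% and 26.7%. Nectin2 had values of -0.59 in adenocarcinoma (limma adjusted p = 0.00125) and -0.70 in inflamed mucosa (0.000838). E-cadherin, Cdh1, was lower in inflamed mucosa at -0.33 (0.00839), as was Afdn at -0.37 (0.0435). None of 4 armadillo relatives outside the desmosome passed in any comparison (Ctnnb1, Ctnnd1, Ctnnd2 and Arvcf), and 0 of them had an unadjusted p below 0.05. Their differences from normal mucosa ran from -0.16 to 0.02 in adenocarcinoma and from -0.10 to 0.01 in inflamed mucosa.

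Of 10 genes for desmosome assembly and shedding, 2 were higher and 2 lower in adenocarcinoma than in normal mucosa, where 35.8% of all genes passed. In inflamed against normal mucosa 26.7% of all genes passed, and between adenocarcinoma and inflamed mucosa 7.12%. Egfr, a receptor kinase whose inhibition strengthens desmosomes in cultured cells, was higher by 0.71 (limma adjusted p = 0.00162) and Atp2a2, a calcium pump of the endoplasmic reticulum that is mutated in human Darier disease, by 0.35 (0.00826). Klk7, a protease that cuts desmosomal cadherins in shed skin, had -0.52 (0.0210), and the kinase Src -0.36 (0.0306). In inflamed mucosa Src had -0.61 (0.00339) and the palmitoyl transferase Zdhhc5 -0.21 (0.0368), both lower than in normal mucosa. Of the 10 epithelial markers, 1 was higher in adenocarcinoma than in normal mucosa (Krt18, above) and 3 were lower (Cldn3 by a value of -0.73, Elf3 -0.45 and Vil1 -0.35), and 5 were lower in inflamed mucosa, among them Cldn3 at -0.76 and Elf3 at -0.68. Between adenocarcinoma and inflamed mucosa 0 genes passed in limma among the adherens, plakin and assembly lists, with 1 of 10, 4 of 9 and 2 of 10 at an unadjusted p below 0.05, where the keratin list had 3 that passed.

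Among these neighbouring genes, some calls rested on single arrays. In adenocarcinoma against normal mucosa, the limma adjusted p reached 0.118 for Krt20 without normal mucosa 1, 0.0682 for Plec without normal mucosa 4, 0.104 for Src and 0.0725 for Klk7 without normal mucosa 2, and 0.0888 for Vil1 without normal mucosa 1. Leaving out adenocarcinoma 2 also ended the calls of Krt20 (0.0918), Plec (0.0580), Src (0.0531) and Klk7 (0.0520). In inflamed against normal mucosa it reached 0.123 for Afdn without inflamed mucosa 4, and 0.0823 for Perp and 0.101 for Zdhhc5 without inflamed mucosa 2. In adenocarcinoma against inflamed mucosa it reached 0.128 for Krt23 without inflamed mucosa 4 and 0.103 for Krt18 without inflamed mucosa 2. Several of these calls were lost in many fits, most of which left out other arrays. Over all alternatives, Afdn lost its inflamed call in 15 of 28 and Zdhhc5 in 14 of 28. Krt23 and Krt18 lost their calls against inflamed mucosa in 15 and 11 of 29. The calls of Krt7 in all 3 comparisons, of Krt18, Macf1, Evpl, Pnn, Nectin2, Egfr and Atp2a2 in adenocarcinoma, and of Macf1, Evpl, Kazn, Nectin2, Cdh1 and Src in inflamed mucosa against normal mucosa were kept whichever array was left out.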

How the data were processed

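Deposited values were log2 RMA expression values per transcript cluster of Affymetrix Mouse Gene 1.0 ST arrays, made by the authors with Expression Console 1.1 from scans processed with GeneChip Command Console 2.0, per the series' design text. Partek appears in the submitters' processing notes with no stated use. RMA subtracts background, forces all arrays onto one distribution and combines probes, which compresses differences of dim genes. No background measure per probe was used here. The number of arrays limits the precision.

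The platform annotation, dated 2016, pairs 21789 of 35556 clusters with a single gene and 1621 with several, and leaves 12146 out. Current symbols came from RefSeq (assembly GRCm38.p6) by Entrez identifier, with 21698 matches. The highest-mean cluster per gene was kept (19938 genes, 999 with more than 1 cluster). Clusters shared by several genes were left out, among them 1 for Dsg1a, Dsg1b and Dsg1c that read 8.44 on normal mucosa 1 and at most 5.73 elsewhere. No source used here gives the array's genome build, so coordinates are those of the promoter table alone. Of 110 symbols in the lists, 106 were measured.

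Tests used limma (version 3.58.1, under R 4.3.3) with lmFit and eBayes (13 arrays in 1 fit, Benjamini-Hochberg over all genes, threshold 0.05), and the fit was tested on simulated data. Errors of differences are SE, and those of levels SD. A marker mean is the mean log2 level of a list. The 8 genes and all lists were chosen with earlier results of these data known. Named from a list were up to 4 genes with the smallest adjusted p among those called, and for each of the 8 genes the 3 genes of highest Pearson r (Gm-numbered and Rik genes left out). Genes of squamous epithelium other than those called were named after their values were seen.

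Same-numbered adenocarcinoma and inflamed arrays share sex and age in the labels, and their deviations from the group means correlated at 0.198 to 0.387 in 4 pairs. Normal mucosa 1, 2 and 4 share sex and age with their numbers too, so the labels alone do not single out these pairs. Differently numbered arrays of these 2 groups gave -0.318 to 0.185. The same-numbered arrays were therefore blocked as pairs in the added fit of adenocarcinoma and inflamed arrays. Same-numbered normal arrays correlated at -0.126 to 0.041 with adenocarcinoma and at -0.041 to 0.026 with inflamed arrays, and were left out of that fit. The main fit has no block, so its calls treat all arrays as independent. Alternatives were a replicate block, sex, age, marker means and array weights in the model, the compared groups alone, other scalings and choices of cluster, a filter on dim genes, and leaving out each array. No column was left unused.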

Additional observations from a re-analysis of the deposited data

Results flagged for a closer look

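In a group of 4 or 5 arrays, 1 array was set apart from the rest when its gap to the nearest other was a large part of the group's range (Dixon's test at 95%). Of 129 groups tested over 43 items, 10 were set apart, and none concerned the 8 desmosome genes of simple epithelium. Chance gives about 1 in 20 for items chosen beforehand. Some squamous genes among the items were named after their values were seen, so the count cannot be set against that rate. Normal mucosa 1 was the highest normal array for Dsg3 at 10.03 (next 5.37), Dsc3 at 8.30 (next 4.85), Krt14 at 11.60 (next 7.34), Krt13, a keratin of the upper squamous layers, at 11.20 (next 6.82), Krt5 at 12.10 (next 6.52) and the squamous marker mean at 9.46 (next 6.12). These 6 values come from 1 array and are not separate events. Inflamed mucosa 1 was the highest inflamed array for Dsg3 at 5.29 (next 4.80), below the highest level of absent transcripts. Adenocarcinoma 4 was the highest tumour for Kazn at 7.56 (next 7.39), inflamed mucosa 2 the lowest inflamed array for Egfr at 9.52 (next 9.64), and normal mucosa 6 the highest normal array for the fibroblast marker mean at 7.93 (next 7.05).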

How the results depend on the processing

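The desmosome genes called (5 in adenocarcinoma against normal mucosa, 4 in inflamed against normal mucosa and 0 in adenocarcinoma against inflamed mucosa) numbered 3 to 5, 1 to 4 and 0 to 2 when 1 array was left out. Over all genes the counts were 5344 to 7645, 3524 to 5786 and 775 to 1652. For adenocarcinoma against normal mucosa, the epithelial mean as a covariate gave 1 desmosome gene and 1943 genes in all, and the smooth muscle mean 0 and 711. Leaving out normal mucosa 1 and 6 together, chosen after seeing the data, gave 3 and 6178. For inflamed against normal mucosa, both covariates gave 0 and 0 genes in all. There the 2 groups alone and array weights gave 1 each (Dsg2), with 3928 and 4711 genes in all. For adenocarcinoma against inflamed mucosa, all genes numbered 117 and 13 with the covariates and 2296 with array weights. There the desmosome genes called were 2 with the 2 groups alone, 4 with array weights (Dsc2, Dsp, Pkp1 and Pkp3), 2 without normal mucosa 1 and 6, and 2 with the replicate block on tumour and inflamed arrays. All genes numbered 1671 with the 2 groups alone, 1679 without normal mucosa 1 and 6, and 1907 with that block.

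Among called differences, signs turned under the 2 covariates alone, while some differences that were not called also changed sign when 1 array was left out (Pkp3 to 0.04 and Dsc3 to 0.53 in adenocarcinoma against normal mucosa without normal mucosa 1). For inflamed against normal mucosa, the epithelial mean gave 0.21 for Jup, 0.12 for Pkp3, 0.12 for Perp and -0.11 for Macf1, and the smooth muscle mean 0.08 for Jup, 0.23 for Pkp3, 0.07 for Dsg2, 0.04 for Perp, 0.14 for Evpl, 0.14 for Src and 0.26 for Vil1. For Krt20 in adenocarcinoma against normal mucosa they gave 0.02 and 0.04. The cause was not tested.

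The replicate block over all 13 arrays gave 4, 3 and 0 desmosome genes, where 6563, 4754 and 1183 genes were called in all. Pkp4 lost its calls in adenocarcinoma and in inflamed mucosa (adjusted p = 0.0758 and 0.0730), Jup lost its call in inflamed mucosa (0.0576) and Dsp gained one (-0.36, 0.0480). The median of all genes was -0.11, -0.12 and 0.02 in the 3 comparisons with median centring and -0.03, -0.03 and -0.01 with cyclic loess, and cyclic loess ended the Pkp4 call in adenocarcinoma (0.0858). The Dsc2, Pkp1 and Pkp2 calls in adenocarcinoma against normal mucosa were lost under the covariates alone, Dsc2 under the smooth muscle mean only, while their differences were 0.79, 0.90 and 0.63 with the smooth muscle mean and 0.67, 0.60 and 0.49 with the epithelial mean.

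The values are relative within each array, dim genes such as Dsc3 and Dsg4 read close to absent transcripts, and 4 or 5 arrays a group leave calls near the threshold dependent on single arrays. Normal mucosa was scraped and the prolapse tissue dissected, so the way of taking tissue and the group cannot be told apart, and the controls' genotype is not settled by the labels.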
